A study of Mus musculus with 12 samples.

Results

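Chemokines and their receptors were followed in sorted endothelial cells, which form the inner wall of blood and lymphatic vessels. The 54 members are the genes of the deposited table named Ccl, Cxcl, Ccr or Cxcr with a number, together with Cx3cl1, Cx3cr1, Ackr2, Ackr3, Ackr4 and Ccrl2, out of 27825 genes listed. All mice were male, of genotype ROSA26-eYFP+/+ Cdh5-CreERT2+, in which a Cre recombinase driven by the endothelial gene Cdh5 switches on a yellow fluorescent reporter. A tamoxifen diet was given at 6 weeks of age, lasting 2 weeks, and from 8 weeks the mice ate either normal chow with 5.8% fat (NC) or a high fat diet with 60% fat (HFD) for 12 to 13 weeks. Mesentery (Mes), the membrane that suspends the gut with its vessels, and epididymal fat (Epi) were digested with actinomycin D, which blocks transcription, and fluorescent cells were sorted. Each library pools tissue of 6 mice, and each combination of tissue and diet has 3 libraries, labelled A, B and C. The labels also speak of 2 independent replicates, and nothing ties the letters to separate experiments, so every SD and p-value below measures the spread between these libraries, which may be partly technical.

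Chemokines are small secreted proteins that steer white blood cells along gradients. Endothelial cells display them on heparan sulfate at the vessel wall, where they switch rolling leukocytes to firm arrest. Typical receptors signal through G proteins, whereas atypical receptors bind chemokines without classical signalling and shape the gradients. In adipose tissue the family is known for recruiting monocytes during obesity, and in lymphatic vessels CCL21 guides dendritic cells and T cells.

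Values are normalized counts, that is, reads divided by a factor for library depth. Totals ran from 8348897 to 25397963 reads per library, and 3 reads correspond to 2.12 to 4.22 normalized counts. A gene listed at 0 could hold up to that level, for counting error only. All 14 pan-endothelial markers were detected, with sums from 51219 in library A of high fat epididymal fat to 205356 in library B of chow mesentery. Markers of other cells were present as well, although the sort was for the fluorescent reporter. The summed level of 16 macrophage and monocyte markers was 3408 to 10644 in chow mesentery, 6213 to 28059 in high fat mesentery, 8339 to 90594 in chow epididymal fat and 142960 to 357360 in high fat epididymal fat. Within that list Adgre1 was at 0 in library B of chow mesentery and Fcgr1 was at 0 in library B of high fat mesentery. Pancreatic acinar markers summed to 48002 to 305169 in mesentery and to at most 557 in epididymal fat. The 5 of 6 red blood cell markers measured summed to at most 432 in mesentery and to 31946 to 44022 in epididymal fat. Adipocyte markers were highest in chow epididymal fat, at 70530 to 94188 beside 6088 to 18753 in the other groups. Of the endothelial markers 7 of 14 were lower in epididymal fat on chow and 9 under high fat feeding, with 2 and 1 higher. The part of these differences in the tissue comparisons below was not tested. In both mesentery groups library C stood apart. Library C of chow mesentery had the lowest depth and a Ccl21a level of 11665 beside 322 and 497 in the other two. Library C of high fat mesentery had a B cell marker sum of 7155, against 69.3 to 1917 in the remaining 11 libraries. In sorted bulk samples, fewer cells of a type and less RNA per cell cannot be told apart.

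The CCL21 copies, Cxcl9, Ccl11, Ccl8 and Ccl19 were among the chemokines that were higher in epididymal fat, and Ccrl2 was higher in mesentery. The test was limma on log2(normalized count + 1) over the 22238 genes with a mean of at least 10, which took in 51 members, and a call needed a Benjamini-Hochberg adjusted p under 0.05. Ccl1, Cxcl15 and Cxcr2 had means of 6.38, 8.06 and 5.87 and were not tested. All groups share an estimate of the spread. Leaving out a library can therefore change the p-value of a comparison it is not part of, with the log2 difference unchanged. On chow, 12 of 51 members (23.5%) differed between the tissues, where 12.8% of all genes did. Of these, 11 were higher in epididymal fat (7.32% of all genes) and 1 was lower (5.47% of all genes). On the high fat diet, 15 of 51 members (29.4%) differed, where 8.34% of all genes did. Of these, 13 were higher in epididymal fat (4.91% of all genes) and 2 lower (3.43% of all genes). Ccl21b and Ccl21d, whose reads are nearly the same, are counted as separate members here and below. The median log2 difference between epididymal fat and mesentery was 1.24 over the members and -0.08 over all genes on chow, and 2.15 and 0.06 on the high fat diet. Rescaling all libraries to the same total moved the median of all genes on the high fat diet to -0.12. The share of higher calls among all genes went from 58.9% to 35.3% (from 57.2% to 67.3% on chow). Higher calls on the high fat diet fell from 13 to 9 among members and from 1092 to 703 among all genes. The 2 lower member calls stayed. Without a variance trend the high fat calls of Ccl2, Ccl6, Ccl7, Ccl9, Ccl21b, Ccl21d and Cxcl16 were lost (adjusted p 0.0874 to 0.124), as were the chow calls of Cxcl1 (0.0536) and Cxcl14 (0.067). With edgeR the same 7 high fat calls were lost (0.0531 to 0.138) and so was that of Ccl21a on chow (0.109). No member with an unadjusted p under 0.05 changed direction under either rescaling.

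**Figure D1:**
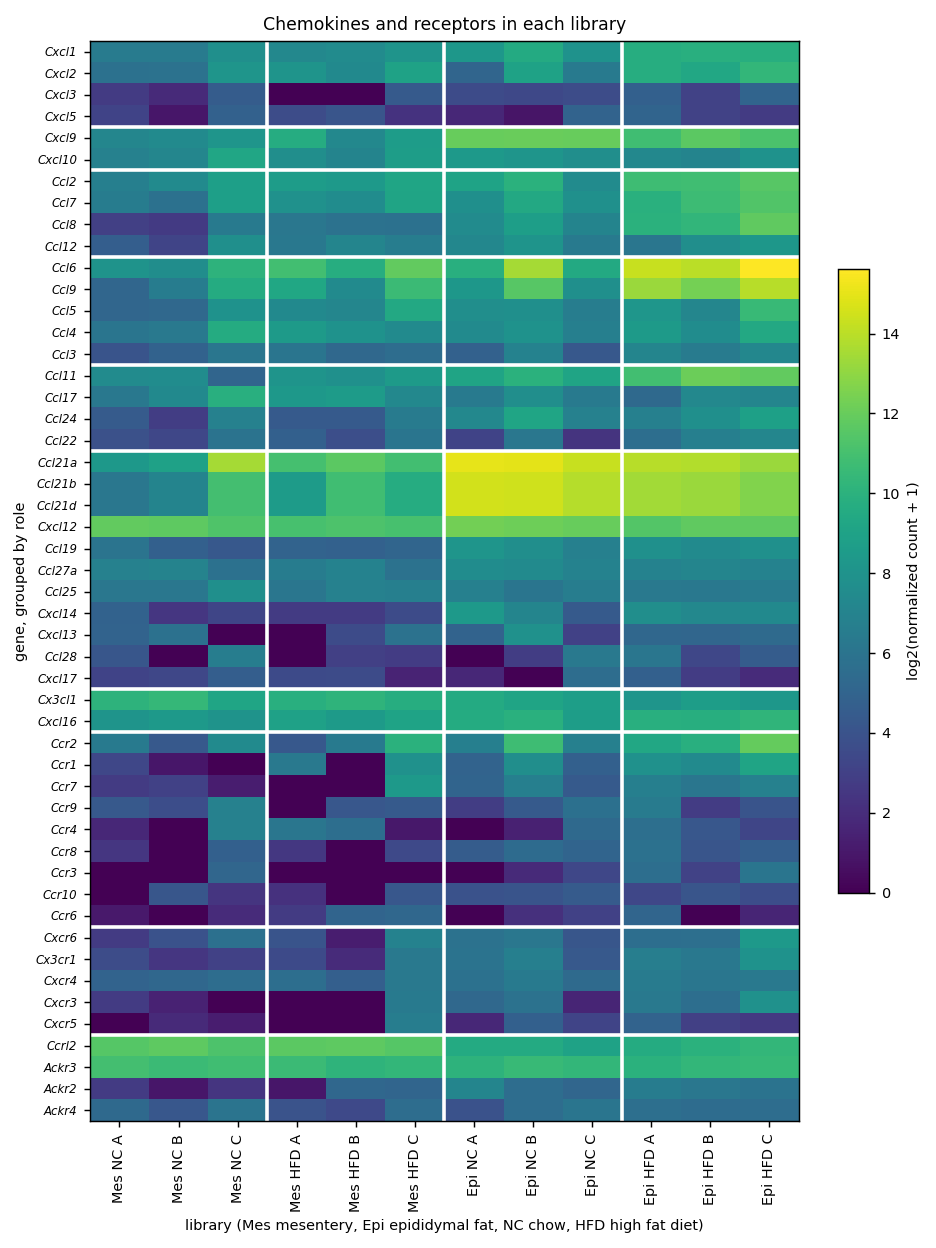
The 50 members drawn, of 51 tested (rows, grouped by role) in each of the 12 libraries (columns), coloured by log2(normalized count + 1). The Ccl21b and Ccl21d rows are brightest in the 6 epididymal libraries. So is Ccl21a, except that library C of chow mesentery (11665) is above library C of high fat epididymal fat (9877). Ccl6 is brightest in high fat epididymal fat, and Ccrl2 is brighter in the 6 mesentery libraries.

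The largest tissue difference on chow was found among the homeostatic ligands, for Ccl21b and Ccl21d. CCL21 is the ligand of CCR7 that lymphatic endothelium makes, and the mouse carries several near-identical copies of its gene. In GENCODE M21 (GRCm38, not the mm39 build of the deposited table) Ccl21a lies at chr4:42772860-42773993 on the reverse strand, Ccl21b at chr4:42255767-42256432 and Ccl21d at chr4:41903610-41904743, both on the forward strand. The 402-base coding sequences of Ccl21a and Ccl21b differ at 2 positions, counted from 1 at the first base of the start codon: T84A and C194T, with the Ccl21a base first. Those of Ccl21b and Ccl21d are identical. Bases 54 to 114 are shown because they hold the first of the differences, in a capital letter, and show how little a sequencing read can use to tell the copies apart.
Ccl21a: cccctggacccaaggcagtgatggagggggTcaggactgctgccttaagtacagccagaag
Ccl21b: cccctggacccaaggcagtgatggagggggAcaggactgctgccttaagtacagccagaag
Ccl21d: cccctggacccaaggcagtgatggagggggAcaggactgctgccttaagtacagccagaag

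Because the copies share nearly all their bases, how reads were split between them depends on the counting, which is not described for such reads, and their separate values are uncertain. Ccl21b and Ccl21d differed by 0 to 22 reads in every library and are the same measurement for practical purposes. Ccl21a stood at 322, 497 and 11665 in chow mesentery, 2015, 3326 and 1853 in high fat mesentery, 33188, 31428 and 20002 in chow epididymal fat, and 15670.2, 14305 and 9877 in high fat epididymal fat. Every epididymal library on chow lay above every mesentery library on either diet. On chow the epididymal mean was 6.78 times the mesentery mean (log2 difference 4.48, SE 0.94, adjusted p = 0.00687). On the high fat diet the difference was 2.49 ± 0.94 and did not pass (log2 ± SE, as in all values of this form below, adjusted p = 0.133), although the groups did not overlap. Without library C of chow mesentery, which is not in that comparison, the difference was unchanged and passed (adjusted p = 0.000196).

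Ccl21b showed the same layout with values of 71.7, 132 and 2001 in chow mesentery, 376, 1778 and 824 in high fat mesentery, 24277, 22816 and 15118 in chow epididymal fat, and 11144, 9629 and 6444 in high fat epididymal fat. It was higher in epididymal fat on chow (log2 difference 6.24, SE 0.91, adjusted p = 0.000662) and under high fat feeding (log2 difference 3.43, SE 0.91, adjusted p = 0.0349). The reads of Ccl21b per read of Ccl21a were not constant. They were 0.223, 0.265 and 0.172 in chow mesentery, 0.187, 0.535 and 0.445 in high fat mesentery and 0.652 to 0.756 in the 6 epididymal libraries. The tissue ratio was therefore not the same for the copies, and whether that reflects the copies or the read assignment was not tested. The high fat call was lost without any one library of high fat mesentery (A, B or C) or of high fat epididymal fat (A, B or C), and without library A of chow epididymal fat, at adjusted p from 0.0515 to 0.139. For Ccl21d (log2 difference 6.24, SE 0.91, adjusted p = 0.000663 on chow, log2 difference 3.43, SE 0.91, adjusted p = 0.0351 on the high fat diet) it was lost without the same libraries and also without library B of chow epididymal fat (adjusted p 0.0501 to 0.14). Rescaling to the same total also ended the high fat call of both (0.0669 and 0.0671).

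Lymphatic markers were counted beside the Ccl21 copies. The sum of 6 lymphatic markers other than Ccl21a was 802 to 1433 in the mesentery libraries and 1953 to 4449 in the epididymal ones, without overlap. Flt4 alone held 941, 953 and 848 of the sums of 1010, 1025 and 1367 in chow mesentery, so the sum understates the tissue difference of the others. Prox1, Pdpn, Reln, Mmrn1 and Lyve1 were each highest of chow mesentery in library C, with Reln at 279 beside 15.9 and 3.58. None of the 6 was at 0 in an epididymal library, and Prox1, the factor that defines lymphatic identity, was at 0 in library A of high fat mesentery and at 10.8 to 79 in the other mesentery libraries. On chow 4 of the 6 were higher in epididymal fat and 1, Flt4, was lower. On the high fat diet none was higher by adjusted p (4 at an unadjusted p under 0.05) and 1, Flt4, was lower. The part of lymphatic cells in the Ccl21 difference was not tested.

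Ccl19, the second CCR7 ligand, was higher in epididymal fat on both diets. Its values were 63.8, 26.9 and 18.3 in chow mesentery, 29.9, 27.7 and 33.6 in high fat mesentery, 285, 205 and 112 in chow epididymal fat, and 223, 179 and 229 in high fat epididymal fat. The lowest epididymal library, at 112, was above the highest mesentery one, at 63.8. The epididymal mean was 5.53 times that of mesentery on chow (log2 difference 2.53, SE 0.47, adjusted p = 0.00355) and 6.92 times on the high fat diet (log2 difference 2.75, SE 0.47, adjusted p = 0.00319).

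Cxcl14, a chemokine made by many epithelial and stromal cells, had values of 28.5, 4.48 and 8.45 in chow mesentery, 5.61, 5.54 and 10.9 in high fat mesentery, 329, 136 and 20.4 in chow epididymal fat, and 205, 157 and 168 in high fat epididymal fat. Under high fat feeding all 3 epididymal libraries lay above 150 and all mesentery libraries below 11, and the difference passed (log2 difference 4.46, SE 0.90, adjusted p = 0.00856). On chow the epididymal libraries were uneven, with library C below library A of mesentery. That call (log2 difference 3.10, SE 0.90, adjusted p = 0.0384) was lost without library B or C of chow mesentery (adjusted p 0.124 and 0.067), A or B of chow epididymal fat (0.211 and 0.149) or B or C of high fat epididymal fat (0.0606 and 0.0627). The summed level of 10 fibroblast markers was 4712 to 10293 in mesentery and 19124 to 63041 in epididymal fat, and its part in the Cxcl14 values was not tested.

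Cxcl12, the ligand of CXCR4 and ACKR3, had values of 3774, 3483 and 2493 in chow mesentery, 2112, 2424 and 2187 in high fat mesentery, 4929, 4489.9 and 3967 in chow epididymal fat, and 2780.1, 3563 and 3553 in high fat epididymal fat. In each tissue every chow library was above every high fat library, the log2 difference with diet being -0.52 ± 0.19 in mesentery (unadjusted p = 0.0176) and -0.44 ± 0.19 in epididymal fat (unadjusted p = 0.0379). Neither passed after adjustment (0.69 and 0.633). Epididymal values were higher than mesentery values on each diet without overlap, by 0.47 ± 0.19 and 0.55 ± 0.19 on the log2 scale, which did not pass either (adjusted p = 0.132 and 0.0999). The high fat tissue difference, unchanged at 0.55, passed without library C of chow mesentery (adjusted p = 0.0494). Both tissue differences passed after rescaling to the same upper quartile (0.0391 on chow, 0.0336 on the high fat diet). Of the remaining homeostatic members, Ccl25 and Ccl27a, which draw cells to gut and skin, held between 56.3 and 219.6. Ccl28, Cxcl13 and Cxcl17 were uneven, each with at least 1 library at 0 and a highest library at 95.7, 239.8 and 47. None of these 5 passed in any comparison.

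Cxcl9, the interferon-gamma-induced ligand of CXCR3 on T cells, was the member with the smallest adjusted p between the tissues on chow. It stood at 143, 179 and 280.2 in chow mesentery, 799, 152 and 388 in high fat mesentery, 4023, 4164 and 4074 in chow epididymal fat, and 1793, 3286 and 2306 in high fat epididymal fat. The 3 chow epididymal libraries differed from each other by less than 150 normalized counts, and every epididymal library was above every mesentery library. The epididymal mean was 20.3 times the mesentery mean on chow (log2 difference 4.40, SE 0.45, adjusted p = 4.78e-05) and 5.51 times on the high fat diet (log2 difference 2.72, SE 0.45, adjusted p = 0.00259). With diet, the high fat epididymal libraries lay below the chow ones without overlap (-0.78 ± 0.45, unadjusted p = 0.111), and in mesentery the difference was 0.90 ± 0.45 (unadjusted p = 0.068). The test of that contrast between tissues gave -1.68 ± 0.64 with an unadjusted p of 0.0212 and an adjusted p of 0.915. Cxcl10, the second CXCR3 ligand, passed in no comparison. It lay between 116 and 614 in mesentery and between 130.5 and 336 in epididymal fat, with tissue differences of 0.33 ± 0.56 on chow and -0.41 ± 0.56 under high fat feeding.

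**Figure D2:**
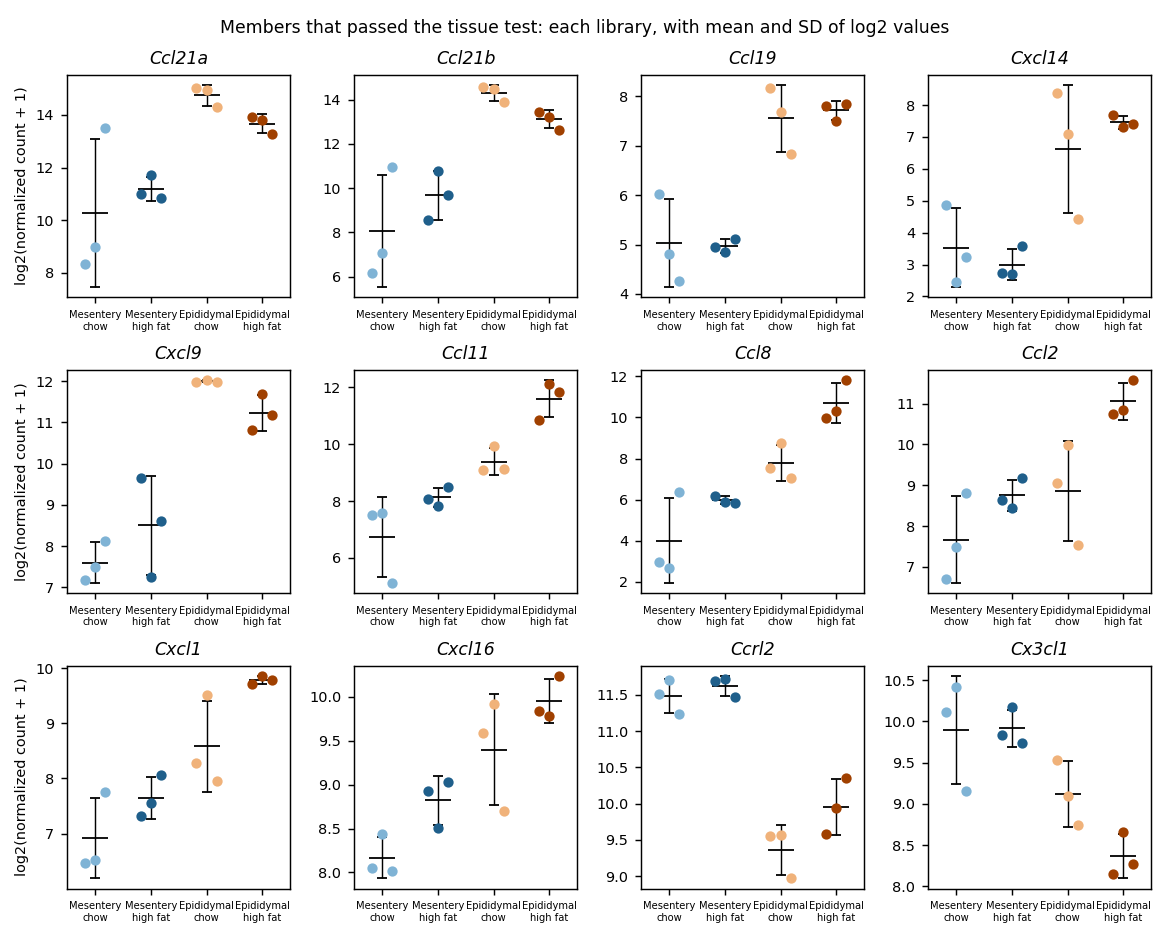
The 12 members shown passed the tissue test on at least 1 diet, with each library as a point on a log2(normalized count + 1) axis and the mean and SD of the 3 log2 values in black. Cxcl9 shows the tightest chow epididymal group, near 12 on this axis, and Ccrl2 and Cx3cl1 are the panels in which mesentery is the higher tissue.

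CCR2 is the receptor that brings inflammatory monocytes out of the blood, and its ligands Ccl2, Ccl7 and Ccl8 were highest in high fat epididymal fat. Ccl8 stood at 6.83, 5.38 and 81.7 in chow mesentery, 72, 58.2 and 55.3 in high fat mesentery, 186, 430.1 and 129.7 in chow epididymal fat, and 1003, 1259 and 3588 in high fat epididymal fat. It was higher in epididymal fat on chow (log2 difference 3.77, SE 0.81, adjusted p = 0.00816) and under high fat feeding (log2 difference 4.73, SE 0.81, adjusted p = 0.00309), where the mean was 31.5 times that of mesentery. Ccl2, the best known monocyte attractant, had values of 104, 178 and 448 in chow mesentery, 399, 345 and 580.0 in high fat mesentery, 533, 1006 and 185 in chow epididymal fat, and 1725, 1836 and 3053 in high fat epididymal fat. Every high fat epididymal library was above all others, and the tissue difference on the high fat diet passed (log2 difference 2.30, SE 0.57, adjusted p = 0.025). Ccl7 had values of 94.5, 55.6 and 449 in chow mesentery, 236, 188 and 551 in high fat mesentery, 222, 676 and 231 in chow epididymal fat, and 945, 1675 and 2632 in high fat epididymal fat, and was higher in high fat epididymal fat than in high fat mesentery (log2 difference 2.47, SE 0.69, adjusted p = 0.0435). The fourth ligand, Ccl12, ran from 8.06 to 215 within chow mesentery alone and passed in no comparison.

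The Ccl2 call was lost without library A or B of high fat mesentery (adjusted p 0.0792 and 0.107) or B or C of high fat epididymal fat (0.0543 and 0.123). The Ccl7 call was lost without library A of chow mesentery or chow epididymal fat (0.0567 in both), A or B of high fat mesentery (0.133 and 0.176) or B or C of high fat epididymal fat (0.111 and 0.194), and after rescaling to the same total (0.078). On chow, Ccl2, Ccl7 and Ccl12 had tissue differences of 1.19 ± 0.57, 1.28 ± 0.69 and 2.04 ± 0.91 that did not pass with all libraries (adjusted p = 0.213, 0.278 and 0.18) and passed without library C of chow mesentery (adjusted p 0.0478, 0.0229 and 0.00474), with Ccl2 also passing without library C of chow epididymal fat (0.0286).

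Ccl11, or eotaxin, which attracts eosinophils through CCR3, gave 4 groups that did not overlap. Its values were 179.9, 192 and 33.8 in chow mesentery, 267, 227 and 357 in high fat mesentery, 545, 983 and 562 in chow epididymal fat, and 1873, 4418 and 3659.9 in high fat epididymal fat. The order was chow mesentery, high fat mesentery, chow epididymal fat and high fat epididymal fat. The tissue difference passed on chow (log2 difference 2.65, SE 0.54, adjusted p = 0.00613) and under high fat feeding (log2 difference 3.48, SE 0.54, adjusted p = 0.00165). The diet difference was 1.39 ± 0.54 in mesentery (adjusted p = 0.718) and 2.22 ± 0.54 in epididymal fat (adjusted p = 0.127), so neither passed. Library C of chow mesentery was the lowest of its group, at 33.8. It is not part of the epididymal diet comparison, but it enters the spread estimate shared by all groups. Without it the epididymal diet difference stayed at 2.22 and passed (adjusted p = 0.00977). Ccl24, another CCR3 ligand, was 47.3 ± 58.3 in chow mesentery and 283 ± 258 in chow epididymal fat (mean ± SD, n = 3). Its tissue difference on chow was 3.03 ± 0.95 (adjusted p = 0.0538). That passed without library C of chow mesentery (0.00667), of high fat mesentery (0.0474, difference unchanged) or of chow epididymal fat (0.0439). On the high fat diet it was 2.69 ± 0.95 (adjusted p = 0.109) and passed, unchanged at 2.69, without library C of chow mesentery (0.0414). Ccl17 and Ccl22, ligands of CCR4 on T cells, passed in no comparison, with Ccl17 highest at 914 in library C of chow mesentery.

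Among the ligands of CCR1 and related receptors, Ccl6 and Ccl9 carried the highest counts. Both are rodent chemokines that macrophages and other myeloid cells make. Ccl6 stood at 255, 198 and 1108 in chow mesentery, 1885, 830.2 and 3770.5 in high fat mesentery, 925, 11512 and 703 in chow epididymal fat, and 20228, 16354 and 49927 in high fat epididymal fat. Within chow epididymal fat library B was far above A and C, and the macrophage marker sum was likewise 90594 there against 13015 and 8339. Ccl9 had values of 35.3, 93.2 and 779 in chow mesentery, 634, 179 and 1616 in high fat mesentery, 307, 2943 and 222 in chow epididymal fat, and 9730.0, 5234 and 15849 in high fat epididymal fat, with library B again the highest of its chow group. On the high fat diet both were higher in epididymal fat than in mesentery (Ccl6 log2 difference 3.82, SE 0.95, adjusted p = 0.0253, and Ccl9 log2 difference 4.03, SE 1.13, adjusted p = 0.0436). The macrophage markers took the same order of groups, with 10 of 16 higher and 1, Mertk, lower in epididymal fat on this diet, and their part in these values was not tested. The Ccl6 call was lost without library A or B of high fat mesentery (adjusted p 0.0721 and 0.124) or C of high fat epididymal fat (0.126), and the Ccl9 call without library B of chow mesentery (0.053), A or B of high fat mesentery (0.105 and 0.196), A of chow epididymal fat (0.0568) or A, B or C of high fat epididymal fat (0.0892, 0.0682 and 0.176), after rescaling to the same total (0.0638) and with only the libraries numbered 50 to 53 in the labels (0.0544). On chow the Ccl9 tissue difference was 2.08 ± 1.13 and passed without library C of chow mesentery (0.0486). Ccl3, Ccl4 and Ccl5, which attract T cells and monocytes, ranged from 15.9 to 1474 and passed nowhere.

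The ligands of CXCR2 attract neutrophils. Cxcl1 had values of 87.7, 90.5 and 214 in chow mesentery, 158, 187 and 265 in high fat mesentery, 311, 733 and 246 in chow epididymal fat, and 838, 929 and 882 in high fat epididymal fat. It was higher in epididymal fat on both diets (log2 difference 1.67, SE 0.41, adjusted p = 0.0161 on chow, log2 difference 2.15, SE 0.41, adjusted p = 0.00583 on the high fat diet), and the 3 high fat epididymal libraries were within 100 normalized counts of each other. The chow call was lost without library A or B of chow mesentery (adjusted p 0.076 and 0.0638) or B of chow epididymal fat (0.078). Cxcl2 was 206 ± 258 in chow and 925 ± 324 in high fat epididymal fat (mean ± SD, n = 3), without overlap. Its diet difference of 2.98 ± 0.83 did not pass (adjusted p = 0.188) except without library B of chow epididymal fat (0.0201). Cxcl3 and Cxcl5 stayed at or below 31.1 and 31.5. The summed level of 7 neutrophil markers was 40.7 to 880 across all libraries.

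The promoters of 41 members were matched in RefSeq (GRCm38.p6) over 250 bases before to 50 bases after the start. A match to the consensus of NF-kB sites (kappaB, both strands) was found in 12 of them (29.3%), against 9.55% of 27025 genes. For the interferon-stimulated response element, read as GAAA, any 2 bases and GAAA on both strands, matches were found in 7.32% of members and 3.99% of genes. The STAT site TTCNNNGAA, which reads the same on both strands, gave 7.32% and 9.55%. The stretch from 120 to 31 bases before the start is shown for 3 CXCR2 ligands and for Ccrl2, whose values are given below, with kappaB matches in capitals and overlapping matches merged. These 4 were chosen after the matches were seen, and a match is a description of letters, not of binding.
Cxcl1, chr5:90891125-90891214, forward strand: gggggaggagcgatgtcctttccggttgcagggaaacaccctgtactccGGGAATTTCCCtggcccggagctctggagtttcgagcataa
Cxcl2, chr5:90903779-90903868, forward strand: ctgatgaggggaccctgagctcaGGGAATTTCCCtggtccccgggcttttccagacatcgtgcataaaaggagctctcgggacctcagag
Cxcl3, chr5:90785981-90786070, forward strand: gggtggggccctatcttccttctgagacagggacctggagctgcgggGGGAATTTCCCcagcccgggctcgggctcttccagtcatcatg
Ccrl2, chr9:111057549-111057638, reverse strand: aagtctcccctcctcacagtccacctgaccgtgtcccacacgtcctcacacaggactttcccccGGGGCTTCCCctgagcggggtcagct

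Cx3cl1 and Cxcl16 are made as membrane-bound proteins with a mucin stalk, and their tissue differences had opposite signs. Cx3cl1, or fractalkine, which holds CX3CR1-bearing monocytes at the vessel wall, stood at 1110.2, 1364 and 569 in chow mesentery, 912, 1155 and 857 in high fat mesentery, 741, 546 and 427 in chow epididymal fat, and 284, 405 and 308 in high fat epididymal fat. It was lower in epididymal fat under high fat feeding (log2 difference -1.55, SE 0.30, adjusted p = 0.0069), where the mesentery mean was 2.93 times the epididymal one. On chow the difference was -0.77 ± 0.30 and did not pass (adjusted p = 0.123). Without library C of chow mesentery, the lowest of its group at 569, it passed (0.00884). Within epididymal fat the 3 high fat libraries were below the 3 chow libraries (-0.76 ± 0.30, adjusted p = 0.535), and within mesentery the diet difference was 0.02 ± 0.30.

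Cxcl16, the ligand of CXCR6, had values of 264, 347 and 258 in chow mesentery, 486, 363 and 521 in high fat mesentery, 767, 969 and 414 in chow epididymal fat, and 915, 883 and 1209 in high fat epididymal fat. It was higher in epididymal fat on chow (log2 difference 1.23, SE 0.28, adjusted p = 0.0124) and under high fat feeding (log2 difference 1.13, SE 0.28, adjusted p = 0.0271), without overlap on either. The chow call was lost without library A of chow mesentery (adjusted p 0.0526) or A or B of chow epididymal fat (0.0596 and 0.0692). The high fat call was lost without library A or B of high fat mesentery (0.0615 and 0.124) or B or C of high fat epididymal fat (0.0505 and 0.133).

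Ccrl2, an atypical receptor that binds chemerin and presents it at the endothelial surface, was the clearest member on the mesentery side. Its values were 2914, 3353 and 2416 in chow mesentery, 3313, 3369 and 2834 in high fat mesentery, 753, 754 and 499 in chow epididymal fat, and 766, 980.3 and 1304 in high fat epididymal fat. The lowest mesentery library was above the highest epididymal one, and the mesentery mean was 4.33 times the epididymal mean on chow (log2 difference -2.12, SE 0.23, adjusted p = 6e-05) and 3.12 times on the high fat diet (log2 difference -1.67, SE 0.23, adjusted p = 0.000569). Rarres2, the gene of its ligand chemerin, lay on the opposite side: it was higher in epididymal fat by 3.67 ± 0.30 on chow and 2.75 ± 0.30 under high fat feeding (log2 difference ± SE, adjusted p = 7.63e-06 and 0.000103).

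Ackr3, which binds CXCL12 and takes it up, had values of 1993, 1616 and 1846 in chow mesentery, 1588, 1135 and 1292 in high fat mesentery, 1073, 1493 and 1295 in chow epididymal fat, and 1019.6, 1285 and 1397 in high fat epididymal fat. In mesentery the 3 high fat libraries were below the 3 chow libraries (-0.45 ± 0.19, adjusted p = 0.748). The epididymal diet difference was -0.06 ± 0.19. Ackr3 passed in no comparison. Ackr2, a scavenger of inflammatory CC chemokines best known on lymphatic endothelium, stood at 5.69, 0.896 and 4.22 in chow mesentery, 0.935, 36 and 32.6 in high fat mesentery, 139, 46.9 and 34.7 in chow epididymal fat, and 91.1, 72.7 and 59.5 in high fat epididymal fat. Chow mesentery was close to the floor of 3 reads in each library, so no fold is given, and the log2 difference of 3.94 ± 1.08 on chow (adjusted p = 0.0283) depends on the pseudocount of 1. The call was lost without library A or B of chow mesentery (adjusted p 0.0527 and 0.094) or A or B of chow epididymal fat (0.145 and 0.0783). Ackr4, which takes up CCL19, CCL21 and CCL25, lay between 9.7 and 66.4 and passed nowhere.

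None of the 15 tested signalling receptors, 10 of the CC class and 5 of the CXC and CX3C classes, passed in any of the 5 comparisons in the main limma fit, and many were near the floor in some library. DESeq2 called Ccr1 and Cx3cr1 between the tissues on chow (adjusted p = 0.00914 and 0.0271), and edgeR called none of the 15. In a limma fit blocked on the label number, Ccr1 passed on chow (adjusted p = 0.0404). Ccr2, Cxcr3 and Cx3cr1 were among those that passed with this block on the high fat diet (0.0013, 0.0368 and 0.0257). With the range of the label numbers as a covariate Ccr3 passed on that diet (0.0306). Cxcr4, the CXCL12 receptor, was detected in every library. Its values were 30.7, 36.7 and 46.5 in chow mesentery, 48.6, 24.9 and 79 in high fat mesentery, 55.6, 85.1 and 40.8 in chow epididymal fat, and 88.8, 69.4 and 80.0 in high fat epididymal fat, which overlapped between the diets in both tissues. With high fat feeding, 9 of the 10 CC receptors had a positive difference between epididymal fat and mesentery, with a median of 3.07 on the log2 scale. Ccr2, the monocyte receptor, was 374 ± 559.9 in high fat mesentery and 1813 ± 1787 in high fat epididymal fat (mean ± SD, n = 3). Library C made up most of the mesentery value, at 1019.7 beside 18.7 and 84.5.

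Several receptors turned on library C of high fat mesentery. Cxcr5, the receptor of follicular B cells, was at 98.8 there and at 0 in libraries A and B. Ccr7 was at 334 and Cxcr3 at 83, with 0 in libraries A and B for each. All 7 B cell markers were detected in that library, among them Cd79a at 3238 beside 52.4 and 44.4 in libraries A and B. T and NK cell markers summed to 2125 in library C beside 281 and 279, with Cd8a at 282 beside 7.48 and 0, and macrophage and monocyte markers to 28059 beside 19973 and 6213. The part of these cells in the receptor values was not tested. Without library C, Ccr2, Ccr7, Cxcr3 and Cx3cr1 were higher in epididymal fat under high fat feeding (adjusted p = 0.0284, 0.00207, 0.0161 and 0.0146), and Ccr7 also passed on chow (0.0434). With it they did not in the main fit (adjusted p = 0.153, 0.234, 0.134 and 0.0894, and 0.311 for Ccr7 on chow). Ccr1 on chow passed without library B of high fat mesentery (0.0124, against 0.101 with it), and Ccr3 on the high fat diet without library C of chow mesentery (0.0449, against 0.0892). For both, and for Ccr7 on chow, the library left out was not in the comparison, and the log2 difference was unchanged.

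**Figure D3:**
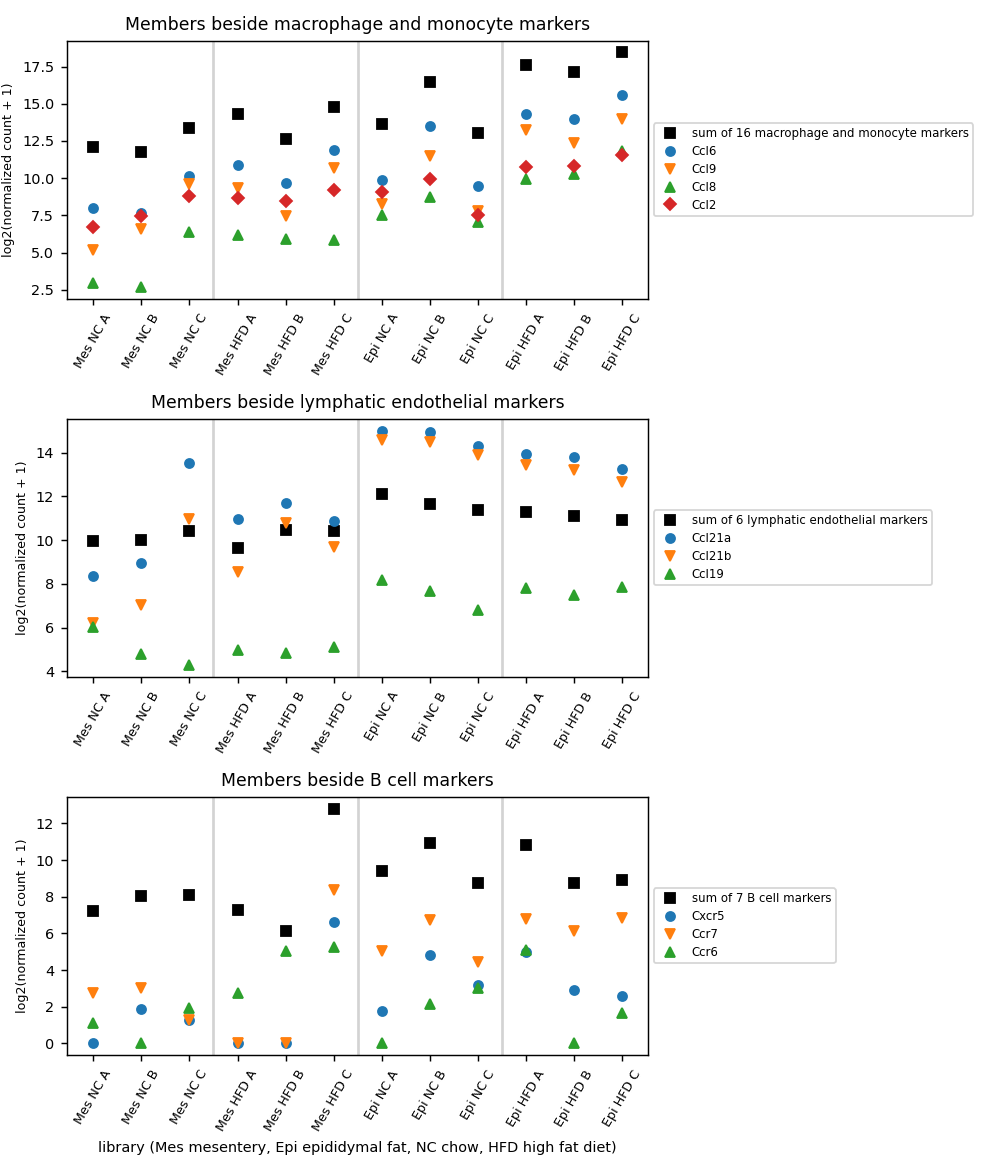
Members (coloured symbols) and the sum of a marker list (black squares) in each of the 12 libraries, on a log2(normalized count + 1) axis, for macrophage and monocyte (top), lymphatic endothelial (middle) and B cell (bottom) markers. The top sums are highest in the 3 high fat epididymal libraries, at 142960 to 357360, and the bottom sum is highest in library C of high fat mesentery, at 7155.

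Diet alone gave no member that passed in either tissue. In mesentery limma called 0 of 51 members (0.0135% of all genes), edgeR and DESeq2 likewise 0, and 7 members (13.7%) had an unadjusted p under 0.05, where 6.15% of all genes did. In epididymal fat limma and edgeR called 0 of 51 (0.549% of all genes with limma). DESeq2 called 4 (Ccl2, Ccl7, Ccl8 and Ccl11), where it called 546 of all 22238 genes tested. With limma 14 members (27.5%) had an unadjusted p under 0.05, where 6.94% of all genes did. The median log2 difference was 0.60 over the members and -0.0023 over all genes in mesentery, and 0.73 and 0.10 in epididymal fat.

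In epididymal fat, 10 members were higher in all high fat libraries than in any chow library (19.6%, against 6.93% of all genes), among them Ccl2, Ccl6, Ccl7, Ccl8, Ccl9, Ccl11, Ccrl2, Cxcl1 and Cxcl2. Another 6 were lower in all of them (11.8%, against 6.57%): Ccl21a, Ccl21b, Ccl21d, Cx3cl1, Cxcl9 and Cxcl12. The Ccl21 copies share nearly all their bases and are not separate measurements. Counting them once would lower that share towards that of all genes. In mesentery 3 were higher (5.88%, against 4.47%), namely Ccl11, Ccr6 and Cxcl16, and 2 were lower (3.92%, against 5.14%), namely Ackr3 and Cxcl12. The largest epididymal differences were those of Ccl9 (3.99 ± 1.13, adjusted p = 0.197) and Ccl6 (3.70 ± 0.95, adjusted p = 0.145). The Ccl6 difference passed without library B of chow epididymal fat (0.0143). Macrophage and monocyte markers moved in the same libraries: their sum was 8339 to 90594 in chow and 142960 to 357360 in high fat epididymal fat, with 14 of 16 diet differences positive, 11 higher at an unadjusted p under 0.05, 1 past the adjusted threshold (Trem2) and a median of 2.52 on the log2 scale. In mesentery the sum was 3408 to 10644 on chow and 6213 to 28059 on the high fat diet. Other marker lists also moved with diet in epididymal fat, where 0.549% of all genes passed. Of 10 fibroblast markers 2 passed as higher, and 6 were higher at an unadjusted p under 0.05. Of 9 adipocyte markers 3 passed as lower, and 8 were lower at that level. Of 14 pan-endothelial markers 0 passed, and 6 were lower at that level. The part of any of these lists in the diet differences was not tested.

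Members with an unadjusted p under 0.05 in both tissues were Ccl6, Ccl8, Ccl11 and Cxcl12, the first 3 higher after high fat feeding and the last lower. Their differences in mesentery were 2.24 ± 0.95, 1.96 ± 0.81, 1.39 ± 0.54 and -0.52 ± 0.19, and in epididymal fat 3.70 ± 0.95, 2.92 ± 0.81, 2.22 ± 0.54 and -0.44 ± 0.19. Some calls changed without library C of chow mesentery. Ccl8 then passed in mesentery (adjusted p = 0.0487), where its difference became 3.14. It also passed in epididymal fat (0.0169), where its difference stayed at 2.92 because that library is not in the comparison. Ccl21a, Ccl21b and Ccl21d passed as higher on the high fat diet in mesentery without it (0.0176, 0.042 and 0.042). With all libraries the Ccl21a diet difference was 0.91 ± 0.94 in mesentery and -1.08 ± 0.94 in epididymal fat.

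The test of whether diet acted differently in the 2 tissues passed for 0 of 51 members with limma, edgeR and DESeq2 (0.00450% of all genes with limma). An unadjusted p under 0.05 was found for 3 members (5.88%), where 4.71% of all genes had one: Cxcl9, Ccl21b and Ccl21d. The last 2 are the same measurement for practical purposes. Their values were -1.68 ± 0.64, -2.81 ± 1.29 and -2.82 ± 1.29. Without library C of chow mesentery the Ccl21a, Ccl21b and Ccl21d differences passed (adjusted p = 0.0165, 0.0477 and 0.0477). All 5 comparisons draw on the same 12 libraries, so they are not independent of each other.

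**Figure D4:**
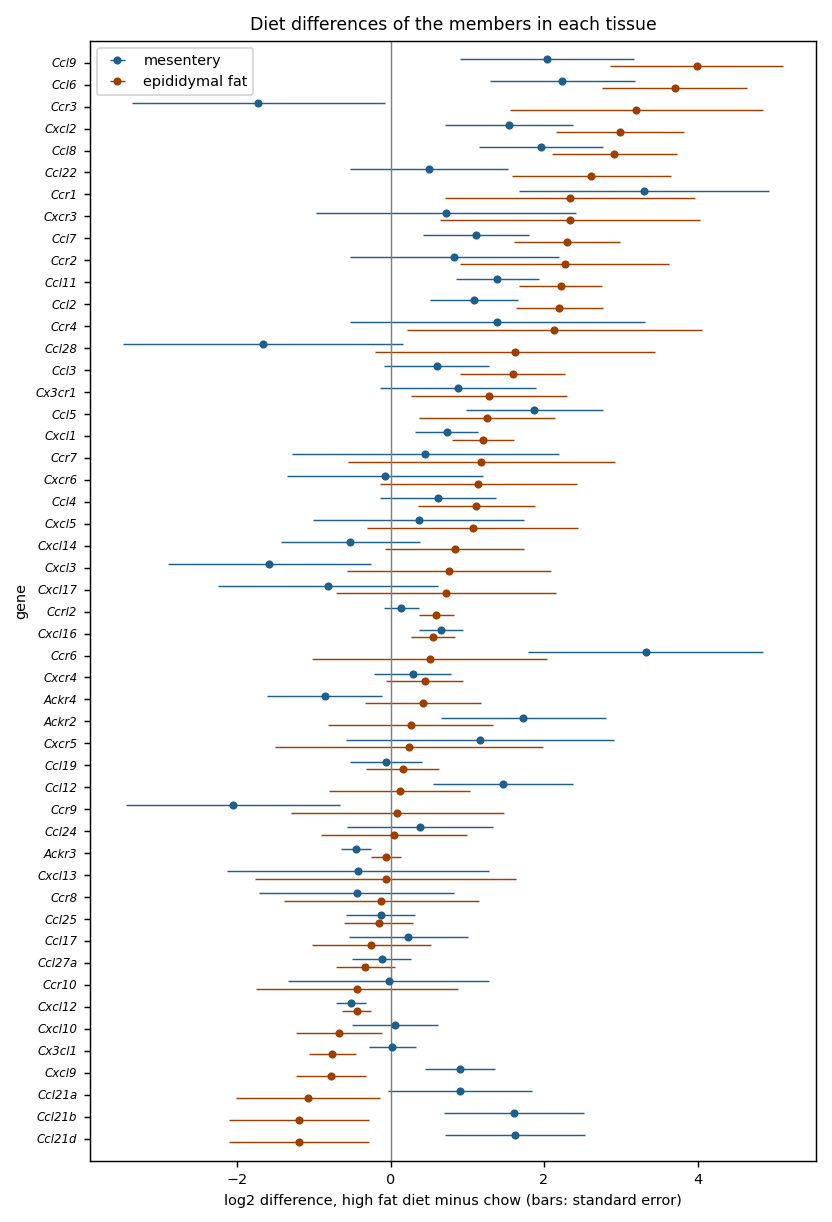
Log2 difference between high fat diet and chow for the 50 members drawn, of 51 tested, in mesentery (blue) and epididymal fat (brown), with standard errors as bars and members ordered by the epididymal value. Ccl9 and Ccl6 lie at the top with 3.99 and 3.70 in epididymal fat, the Ccl21 copies lie at the bottom, and most bars of the low receptors cross 0.

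Genes around the family were read from lists. Over all genes 7.32% were higher and 5.47% lower in epididymal fat on chow, and 4.91% and 3.43% on the high fat diet. The counts of calls in each list, here and in the next paragraph, stand beside these shares. Of 12 ligands and receptors outside the naming rule, 4 were higher in epididymal fat on each diet and none was lower: Rarres2, the platelet and macrophage chemokine gene Pf4, Mif and the atypical receptor gene Gpr182. Pf4 differed by 3.79 ± 0.66 on chow and 4.24 ± 0.66 under high fat feeding. Of 36 genes for signalling below the receptors, 6 were higher and 2 lower in epididymal fat on chow, and 5 were higher on the high fat diet. Pik3r5, a regulatory subunit of the G protein-coupled PI 3-kinase, and Rgs10, which ends G protein signals, were higher on both. Gng2, a G protein gamma subunit, was the single gene of these lists to pass with diet, in epididymal fat (1.44 ± 0.29, adjusted p = 0.0491), where 0.549% of all genes passed.

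Of 20 genes that present or process chemokines, 8 were higher and 5 lower in epididymal fat on chow, and 5 higher and 3 lower under high fat feeding. The heparan sulfate carriers Sdc1 and Sdc2, the heparan sulfate polymerase gene Ext1 and the proteases Mmp2 and Mmp14 were higher on both diets. Plvap, which forms the diaphragms of endothelial pores, was lower by -3.73 ± 0.32 and -4.36 ± 0.32 on the log2 scale, together with Cpd and Ndst1, an enzyme that sulfates heparan. Of 30 tested genes in the list of NF-kB and interferon inducers, 1 was higher and 6 lower in epididymal fat on chow, and 1 higher and 4 lower under high fat feeding. Irf1, Irf7, Nfkb1 and Stat2 were lower on both diets, and Tnf was higher on both (4.99 ± 1.17 and 4.17 ± 1.17). The Tnf mean in chow mesentery was 0.759 (SD 1.31), under the floor of 3 reads, so its chow difference depends on the pseudocount of 1. In high fat mesentery the Tnf mean was 18.6 (SD 16.6). Cxcl9, itself an interferon target, was higher in the tissue in which Irf1, Irf7, Nfkb1 and Stat2 were lower.

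Levels of different genes can be compared only per length, here as mean normalized counts per kilobase of exon in GENCODE M21. Ccl21b was left aside because its model holds coding sequence alone. In chow mesentery the order began with Ccl21a at 4783, Ccrl2 at 1114, Ccl21d at 844, Ccl17 at 751 and Ackr3 at 543. Without library C, Ccl21a, Ccl21d and Ccl17 stood at 471, 117 and 238 per kilobase, below Ccrl2 at 1206 and Ackr3 at 539. In chow epididymal fat Ccl21a at 32420.4 and Ccl21d at 23825 were followed by Ccl6 at 2440 and Cxcl9 at 1355. The Ccl6 mean turned on library B, without which it was 453 per kilobase, below Cxcl9 at 1342. In high fat epididymal fat the order was Ccl6 at 16065, Ccl21a at 15269, Ccl21d at 10425, Ccl8 at 3816, Ccl9 at 3373 and Ccl11 at 3066. Ccl6 ran from 9111 to 27815 per kilobase over these libraries and Ccl21a from 11353 to 18012, so their spreads overlapped, and without library C Ccl6 at 10190 was below Ccl21a at 17227. The ranges of Ccl8, Ccl9 and Ccl11 overlapped as well.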

How the data were processed

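The deposited table holds normalized counts per gene, a signal made by the authors, per the file headers, for 12 libraries of sorted mouse endothelial cells. Per the submitters' processing notes, STAR 2.7.9a, featureCounts, Subread, DESeq2 1.34.0 and build mm39 were used, with no role or order given. Gene annotation and strand setting are not given in the sources used here. In each library all values were multiples of what 1 read is worth there (100% of values, tolerance 0.001), so reads were recovered for the count tests. Groups came from the sample titles. limma 3.58.1 (R 4.3.3), lmFit and eBayes with a trend, was fitted to log2(normalized count + 1) for genes with a mean of at least 10, with one mean per group and Benjamini-Hochberg adjustment over all genes in each of 5 comparisons. Log2 differences understate changes of low genes. Values in every library are given for members called in any comparison, for those with an unadjusted p under 0.05 in both diet comparisons and for Cxcl12, Cxcr4, Ackr3, Cx3cl1, Cxcl16, Ccl21a and Ccl2. Alternatives covered pseudocounts of 0.5 and 8, filters, rescaling, eBayes without a trend, edgeR 4.0.16, DESeq2 1.42.0, the sample numbers in the labels, a replicate block and leaving out each library. All scripts that fit models were tested on simulated data. The members and lists were chosen with earlier results of these data known. A tested member is not reported here by name or drawn, and it stays in the counts. A floor of 3 reads covers counting error only, since reads carry no molecular identifiers. Sequences come from GENCODE M21 transcripts and RefSeq promoters.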

Additional observations from a re-analysis of the deposited data

How the results depend on the processing

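Of the 27 member calls, 15 held in all 24 alternatives. Over single results and alternatives, 568 values of called results stayed called, 78 lost the call and none reversed. Of the 228 results not called, 34 gained a call in at least 1 alternative, at 75 of 5346 values. In mesentery 0 members passed with diet, with 3 when only libraries numbered 50 to 53 in the labels were used and 0 to 4 when 1 library was left out. In epididymal fat 0 passed with diet, with 4 by DESeq2, 1 with the number range as a covariate, 1 with the numbers 50 to 53 only, and 0 to 2 with 1 library left out. On chow 12 members differed by tissue, with 19 for the numbers 50 to 53 only and 8 to 17 with 1 library left out. Calls over all genes on chow likewise went from 2843 to 4349 with those numbers only. On the high fat diet 15 did, with 8 without a variance trend, 8 by edgeR and 8 to 19 with 1 library left out. Over all genes the high fat calls went from 1854 to 1046 without a variance trend and 1021 by edgeR. The difference of diet effects passed for 0, with 3 for the numbers 50 to 53 only and 0 to 3 with 1 library left out. The cause was not tested for any of these.

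Over all genes, diet in mesentery called 3 genes with limma, 1 with edgeR and 154 with DESeq2, diet in epididymal fat 122, 29 and 546 (1 without a variance trend), and the difference of diet effects 1, 1 and 133. Rescaling to the same total moved the median log2 difference of all genes from -0.0023 to 0.13 for diet in mesentery, from 0.10 to -0.04 for diet in epididymal fat and from 0.11 to -0.16 for the difference of diet effects.

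A replicate block was fitted with the letter (diet) or the label number (tissue). Deviations from the group means were correlated between same-numbered libraries of different tissue, at 0.0273 to 0.583 on chow and -0.149 to 0.146 on the high fat diet. The means were 0.38 and -0.0393, beside -0.182 and 0.023 for pairs of different number. Between same-lettered libraries of different diet they ran from -0.149 to 0.119 in mesentery and from -0.675 to 0.436 in epididymal fat. Whether an equal number marks a shared pool of mice is not stated, and the main fit has no block. With the block 1 member passed with diet in epididymal fat (Ccl11), where 82 of all 22238 genes tested did. By tissue 22 members differed on the high fat diet (1796 of all genes) and 12 on chow (2651 of all genes). For diet in mesentery 0 members passed (1 of all genes). The Cxcl1 call on chow was lost (adjusted p = 0.058). Depth limits the receptors most, several of which were at or under 3 reads in some libraries.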
